A study of Mus musculus with 2 samples.

Results

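Expression of 9 genes for transcription factors that direct the myeloid lineage was followed in neutrophils treated with tumor exosomes. The genes were *Cebpa*, *Cebpb*, *Cebpd*, *Cebpe*, *Spi1*, *Gfi1*, *Klf2*, *Klf4* and *Runx1*, chosen by name from the 35522 features that both expression tables list. Of the 9 members, 8 were found under these symbols, and *Spi1* was found under its older symbol *Sfpi1*, which RefSeq gives as a synonym of *Spi1* alone. The neutrophils were bone marrow cells sorted for CD11b, high for Ly-6G and low or negative for Ly-6C, and they were grown in RPMI-1640 with 10 ng/ml GM-CSF, a myeloid growth factor that both groups received. For 3 days, one culture was given PBS and the other 20 μg/ml exosomes (the ELV-treated sample), which are vesicles shed by cells of the mouse colon cancer line CT26 after enrichment for cancer stem cells in stem cell medium. Each treatment had 1 library, so the spread between cultures is unknown and no test between the treatments was made. The mice used were Balb/C, aged 5 to 8 weeks, and the number of donors behind each culture is not given in the sources used here.

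These factors act in sequence and in opposition. C/EBPα and PU.1, the protein of *Spi1*, act with RUNX1 to open the myeloid program in progenitors. GFI1 and C/EBPε carry cells on to granulocytes and granule protein synthesis, and C/EBPβ and C/EBPδ take over in mature and inflamed myeloid cells. KLF4 is best known for monocyte differentiation and KLF2 for keeping lymphocytes and myeloid cells quiescent. Levels below are RPKM, the reads of a gene divided by the length of its exons and by the mapped reads of its library, so that levels may be compared between genes. Ratios are the exosome RPKM over the PBS RPKM with no pseudocount.

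The libraries held about 66000000 mapped reads for PBS and 79100000 for exosomes, as estimated from the values below 0.01 RPKM that stand for 1 read. The 7 neutrophil markers examined were all present, at 56.19 RPKM or more in either library. Their summed level was 82352 RPKM in PBS and 29720.2 with exosomes. Most of it came from *S100a8*, at 32822.8 and 14381.8 RPKM, and *S100a9*, at 43059.1 and 13834.1. At least 2-fold lower were 7 of 7, against 5.62% of genes with at least 0.25 RPKM in both libraries. *Ly6g*, for the surface protein of the sort, had 286.96 RPKM in PBS and 56.19 with exosomes, and *Retnlg*, a secreted product of mature neutrophils, had 3021 and 208.33. Monocyte and macrophage markers summed to 165.07 and 473.29 RPKM. Across 9698 genes with at least 0.25 RPKM in both libraries, the median log2 ratio was 0.53, so the median gene stood 1.44 times higher with exosomes before any centring. This shift differed with the level of a gene, from a median log2 ratio of 1 at a mean of 1 to 5 RPKM to 0.04 at 50 RPKM or more. Each member is therefore given beside both medians.

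All 9 members passed the limit of 0.25 RPKM in both libraries. Only *Klf4* was at least 2-fold higher with exosomes, 1 of 9 members against 31.5% of all genes tested. No member was at least 2-fold lower, against 5.62% of all genes, and the other 8 members stayed within 2-fold. Ratios were above 1 for 6 members and below 1 for *Cebpd*, *Cebpe* and *Gfi1*. The median log2 ratio of the members was 0.14, a ratio of 1.10, compared with 0.53 for all genes, and 7 of the 9 members lay below that overall median. Removing the overall median would thus turn the sign for *Spi1*, *Cebpa*, *Klf2* and *Runx1*, whereas *Klf4* and *Cebpb* stayed above 0 and *Cebpd*, *Cebpe* and *Gfi1* below 0 under every centring and scaling tried.

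The levels of the members spanned a wide range, which is shown in the plot of levels by library. In PBS, *Spi1* was highest at 310.26 RPKM and *Gfi1* lowest at 0.50, a span of 620.5-fold. With exosomes, *Cebpb* was highest at 418.72 RPKM and *Gfi1* again lowest at 0.33, a span of 1268.9-fold. The order changed at 2 places, since *Cebpb* passed *Spi1* and *Runx1* passed *Cebpe*. With 1 library each, whether neighbours in this order differ beyond the spread between cultures cannot be said.

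**Figure D1:**
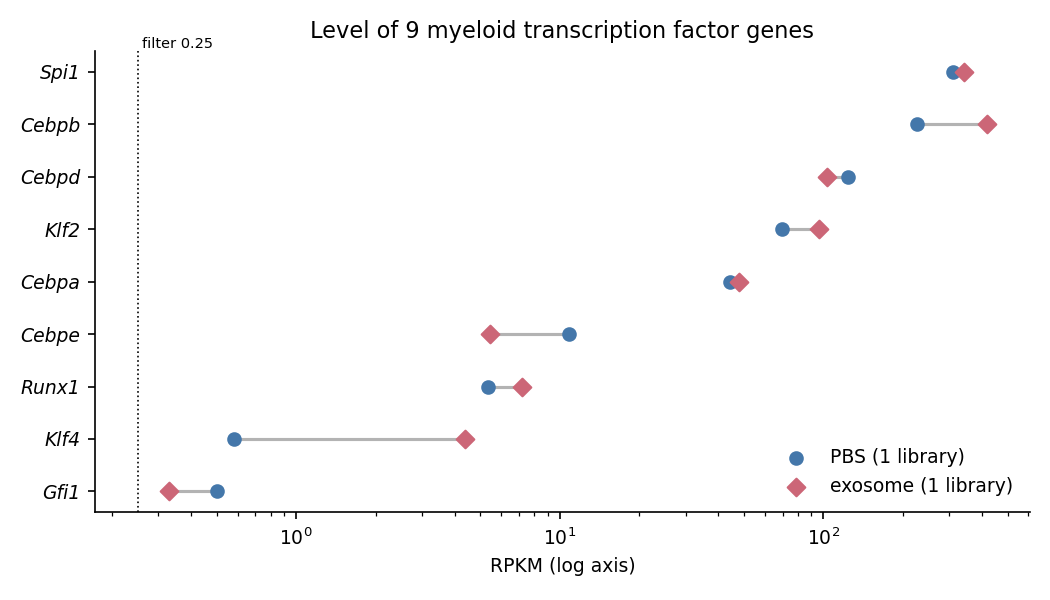
RPKM of the 9 members (log axis) in the PBS library (circles) and the exosome library (diamonds), 1 library each and without error bars for that reason, ordered by the PBS level. The dotted line marks the limit of 0.25 RPKM; the longest gap is that of Klf4, from 0.58 to 4.36 RPKM, and Cebpb moves past Spi1.

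C/EBP proteins share a basic leucine zipper with which they pair and bind DNA, so the balance among the genes of this family was examined first. *Cebpb* (chromosome 2, 167688915 to 167690418, plus strand, GRCm38) had 227.42 RPKM in PBS and 418.72 with exosomes, a log2 ratio of 0.88. Its 95% counting interval, which covers the sampling of reads and nothing else, was 0.86 to 0.90. *Cebpb* was thus higher with exosomes and short of the 2-fold limit, and 84.9% of 1099 genes at a mean of 50 RPKM or more had a lower ratio. An exon of *Tmem189* on the opposite strand overlaps this gene in GENCODE M21. That gene was listed at 82.15 and 74.8 RPKM, and how reads were assigned by strand is not given in the sources used here.

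*Cebpd* (chromosome 16, 15887286 to 15891031, plus strand), whose protein is an acute inducer of inflammatory genes, had 124.47 RPKM in PBS and 103.31 with exosomes. The log2 ratio was -0.27 (counting interval -0.29 to -0.25), opposite in sign to that of *Cebpb*. *Cebpa* (chromosome 7, 35119293 to 35121928, plus strand), which specifies granulocyte and monocyte progenitors, had 44.12 and 47.80 RPKM. Its log2 ratio of 0.12 (counting interval 0.07 to 0.16) became -0.41 once the overall median was removed. The longest annotated transcripts of these 3 genes have 1 exon.

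*Cebpe* (chromosome 14, 54710360 to 54712174, minus strand), the factor of terminal granulocyte maturation, had 10.86 RPKM in PBS and 5.44 with exosomes. The ratio of 0.501 lay just short of the 2-fold limit, and *Cebpe* was not counted as lower. Rounding of the deposited values to 0.01 leaves it between 0.5002 and 0.502, and the counting interval of the log2 ratio, -1.16 to -0.84, spans the limit. Among 1556 genes with a mean of 5 to 10 RPKM the median log2 ratio was 0.67, and 3.86% of them had a lower ratio than *Cebpe*. *Cebpe* therefore stood 1.67 below genes of its own level on the log2 scale.

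Within the family, the shares do not change when 1 constant scales one library to the other. Centring within level bins is not such a scaling, and under it the log2 ratio was 0.84 for *Cebpb* and -1.67 for *Cebpe*. Of the summed RPKM of these 4 genes, *Cebpb* held 55.9% in PBS and 72.8% with exosomes. The share of *Cebpd* was 30.6% and 17.96%, that of *Cebpa* 10.8% and 8.31%, and that of *Cebpe* 2.67% and 0.946%. In PBS the level of *Cebpb* was 20.9 times that of *Cebpe*, and with exosomes it was 77.0 times, so the pair moved apart 3.68-fold. *Cebpa* over *Cebpb* was 0.194 in PBS and 0.114 with exosomes, and *Cebpd* over *Cebpb* was 0.547 and 0.247.

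**Figure D2:**
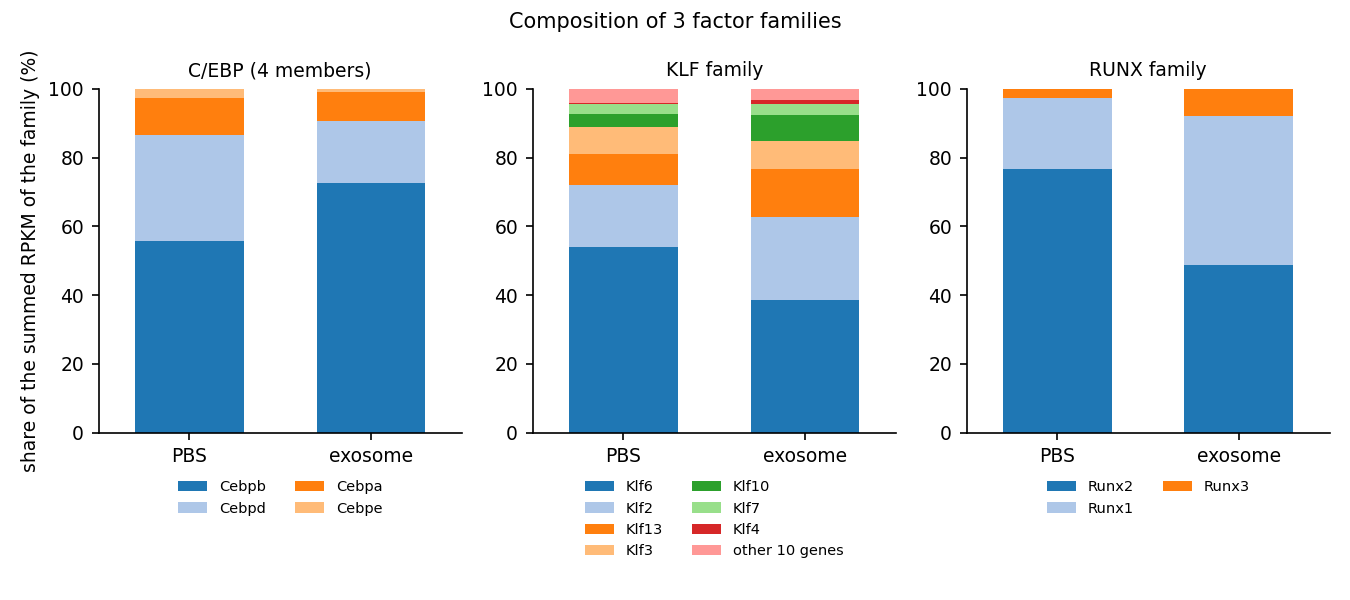
Share of each gene in the summed RPKM of its family (percent) in the PBS and the exosome library, for the 4 C/EBP members, the 17 KLF genes listed and the 3 RUNX genes. Cebpb widens from 55.9% to 72.8%, Klf6 narrows from 54.1% to 38.6% while Klf2 widens from 17.9% to 24.1%, and Runx1 from 20.6% to 43.2%.

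*Spi1* (chromosome 2, 91082390 to 91115756, plus strand) encodes PU.1, an ETS protein on which granulocytes and macrophages both depend. It had 310.26 RPKM in PBS and 341.01 with exosomes, a log2 ratio of 0.14 (counting interval 0.12 to 0.15). The median of genes at its level was 0.04, and 55.7% of them had a lower ratio. The balance of *Spi1* to *Cebpa*, a pair whose relative dose is known to weigh on the choice between granulocytes and macrophages, was 7.03 in PBS and 7.13 with exosomes. *Spi1* over *Cebpe*, by contrast, was 28.6 and 62.7, a 2.19-fold difference.

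*Runx1* (chromosome 16, 92601466 to 92826149, minus strand), the DNA-binding partner of CBFβ, was less abundant. It had 5.36 RPKM in PBS and 7.22 with exosomes, a log2 ratio of 0.43 (counting interval 0.29 to 0.57), which was below the median of 0.67 among genes at its level. Its relative *Runx2* was the larger RUNX transcript in PBS and was 2.45-fold lower with exosomes, at 20.01 and 8.16 RPKM. *Runx3* had 0.70 and 1.33 RPKM. The share of *Runx1* in the 3 RUNX genes was accordingly 20.6% in PBS and 43.2% with exosomes. *Cbfb*, which encodes the common CBFβ subunit, had 28.06 and 47.80 RPKM (log2 ratio 0.77).

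*Gfi1* (chromosome 5, 107716657 to 107726036, minus strand), a zinc finger repressor that holds down monocyte genes in granulocytes, was the least abundant member. It had 0.50 RPKM in PBS and 0.33 with exosomes, about 87 and 69 reads. The log2 ratio was -0.60 with a counting interval of -1.07 to -0.12, which includes the 2-fold limit, so how far *Gfi1* was lower was not resolved at this depth. *Egr2*, a monocyte factor opposed to *Gfi1* in progenitors, had 5.02 and 8.06 RPKM, and *Egr2* exceeded *Gfi1* 10.0-fold in PBS and 24.4-fold with exosomes. *Irf8*, another monocyte factor, had 5.82 and 5.05 RPKM and exceeded *Gfi1* 11.6-fold and 15.3-fold.

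*Klf4* (chromosome 4, 55527143 to 55532466, minus strand) had 0.58 RPKM in PBS and 4.36 with exosomes, a ratio of 7.52. The log2 ratio was 2.91 with a counting interval of 2.63 to 3.20, from about 116 and 1045 reads. It was also the only member past 4-fold, as were 8.52% of all genes tested on the higher side and 1.14% on the lower side. Genes with a mean of 1 to 5 RPKM had a median log2 ratio of 1, and 50.2% of these 2950 genes were at least 2-fold higher. At that level *Klf4* still exceeded 97.2% of genes, by 1.91 over their median on the log2 scale. The factor lists, which also hold cofactors and regulators such as *Trib1*, had 56 genes that passed the limit, members included. Of these, only *Nr4a1* had a larger ratio than *Klf4*. By distance in log2 RPKM over the 2 libraries, the listed genes nearest to *Klf4* were *Runx3* (1.73) and *Tal1* (2.20) of 55 candidates. Neither lay close, since for the other members the nearest gene lay at 0.16 (*Gfi1*) to 0.78 (*Cebpe*). The log2 ratio was 0.93 for *Runx3* and -0.14 for *Tal1*.

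*Klf2* (chromosome 8, 72319033 to 72321656, plus strand) had 69.80 RPKM in PBS and 96.46 with exosomes. The log2 ratio was 0.47 (counting interval 0.43 to 0.51), above the median of 0.04 at its level and close to the median of 0.53 over all genes. *Klf2* thus stayed far above *Klf4* in both libraries, by 120.3-fold in PBS and 22.1-fold with exosomes. Of 15 other KLF genes, 8 passed the limit, of which *Klf10* was at least 2-fold higher (14.39 and 29.63 RPKM) and *Klf5* at least 2-fold lower (5.53 and 2.32 RPKM). With the overall median removed, 0 of these 8 were higher and 2 were lower, against 16.8% and 13.2% of all genes. The call of *Klf10* thus depends on the scaling. *Klf6*, an early response gene and the most abundant KLF transcript, had 210.93 and 154.15 RPKM, and its share of the family was 54.1% in PBS and 38.6% with exosomes. The summed RPKM of the 17 KLF genes was 390.2 in PBS and 399.5 with exosomes.

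**Figure D3:**
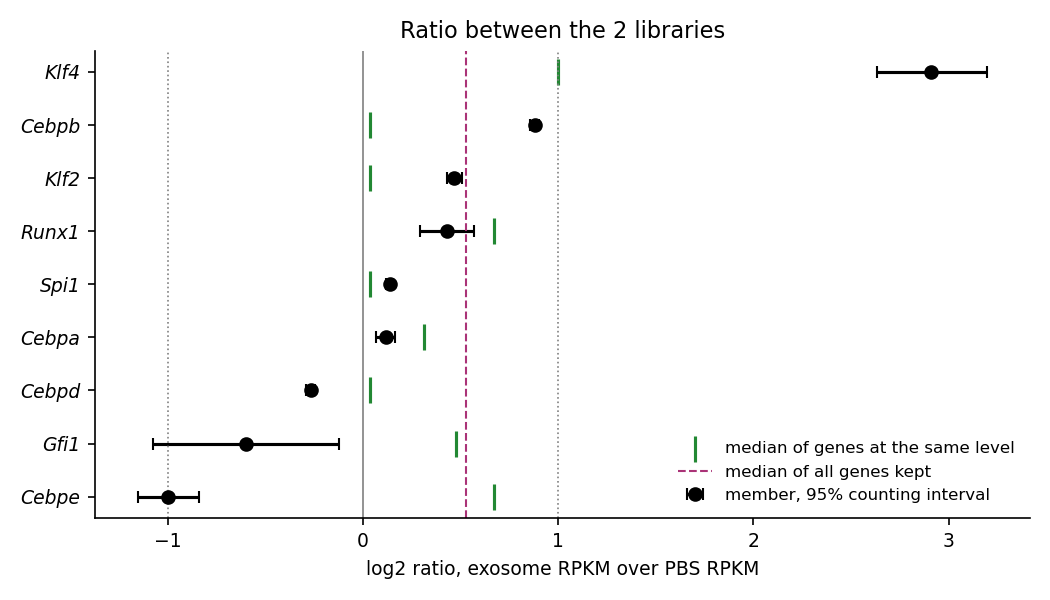
Log2 ratio of exosome RPKM over PBS RPKM for each member (points) with the 95% counting interval of the estimated reads (bars), the median of all 9698 genes tested (dashed line, 0.53) and the median of genes at the same level (green ticks). Dotted lines mark 2-fold; Klf4 at 2.91 is past it, Cebpb at 0.88 is short of it and Cebpe at -0.997 lies at its edge.

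The start regions of the members with the highest ratios are shown because these genes, *Klf4* and *Cebpb*, alone stood above the overall median. RefSeq promoter windows were matched for 6 of the 9 members, and the 250 bases before the annotated start were searched on both strands for short motifs of the C/EBP, PU.1, KLF, RUNX and GFI1 proteins and of NF-κB. The *Cebpb* window lies at chr2:167688665-167688914 on the plus strand and the *Klf4* window at chr4:55532476-55532725 on the minus strand (GRCm38.p6). Both are printed 5′ to 3′ along the gene, and capitals mark CACCC or its complement GGGTG, the core bound by KLF proteins.
Cebpb: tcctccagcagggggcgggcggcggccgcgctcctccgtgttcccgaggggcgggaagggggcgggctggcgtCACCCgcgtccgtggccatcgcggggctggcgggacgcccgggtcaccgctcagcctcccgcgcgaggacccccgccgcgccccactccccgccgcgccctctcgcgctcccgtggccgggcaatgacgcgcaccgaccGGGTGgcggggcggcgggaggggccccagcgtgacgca
Klf4: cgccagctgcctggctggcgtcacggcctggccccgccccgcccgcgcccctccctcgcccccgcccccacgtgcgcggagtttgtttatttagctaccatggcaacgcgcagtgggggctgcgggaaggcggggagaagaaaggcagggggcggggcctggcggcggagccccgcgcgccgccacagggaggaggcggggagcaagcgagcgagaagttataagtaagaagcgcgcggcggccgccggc

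Both windows were rich in G and C, 81.6% in *Cebpb* and 74% in *Klf4*. The CACCC core occurred 2 times in the *Cebpb* window, and 52.0% of 32851 promoter windows of that length hold at least 1. It was absent from the *Klf4* window. Neither window held TTGCNNA (C/EBP, in 32.8% of all windows), GAGGAAG (PU.1, 10.6%), TGTGGT (RUNX, 14.0%), AAATCA (GFI1, 12.4%) or GGGANTT (NF-κB, 14.4%). These matches describe letters in a short window and not bound sites.

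Partners and relatives of the members were compared next, by counts and medians beside those of all genes (31.5% higher, 5.62% lower, median log2 ratio 0.53). After centring on the median of all genes, 16.8% of all genes were higher and 13.2% lower, the shares to set beside the centred counts below. Genes named from these lists because a count was small were chosen after their values were seen. Among 6 C/EBP partners and regulators, 0 were at least 2-fold higher and 1 was lower, with a median log2 ratio of -0.62. The gene lower was *Ddit3*, which encodes CHOP, a stress-induced C/EBP that pairs with and blocks its relatives, at 83.99 and 23.52 RPKM. *Cebpg*, a C/EBP without an activation domain, had 14.89 and 10.78 RPKM. *Trib1*, whose protein directs the destruction of C/EBPα, had 79.67 and 46.40 RPKM.

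Of 13 other ETS genes that passed the limit, 2 were at least 2-fold higher and 0 lower (median log2 ratio 0.19). They were *Ets2*, at 94.41 and 196.58 RPKM, and *Gabpa*, at 7.69 and 17.00 RPKM. Of the GFI1 relatives and corepressors, 5 passed, 1 was higher and 0 were lower (median 0.71). The gene higher was the deacetylase *Hdac2*, at 2.22 and 8.35 RPKM, so that corepressor transcripts were present while *Gfi1* itself stood below 1 RPKM. Of the 5 RUNX relatives and cofactors that passed, 0 were higher and *Runx2* was lower (median 0.25). With the overall median removed, the medians of the other KLF, ETS and RUNX lists were -0.41, -0.33 and -0.28. The ETS counts then became 0 higher and 2 lower, so *Ets2* and *Gabpa* were no longer called, and the RUNX counts 0 higher and 2 lower. The C/EBP partners then had 0 higher and 3 lower, against 16.8% and 13.2% of all genes after centring.

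Factors of the sister lineages were unequal. Of 14 monocyte, macrophage and dendritic cell factors, 10 passed the limit, and 3 of these were at least 2-fold higher and 0 lower, with a median log2 ratio of 0.38. Centring on all genes gave 1 higher (*Nr4a1*) and 1 lower, with a median of -0.15, and ended the calls of *Zeb2* and *Id2*. *Nr4a1*, an orphan nuclear receptor of patrolling monocytes, had 4.89 RPKM in PBS and 63.80 with exosomes, a ratio of 13.0. *Zeb2* had 13.72 and 37.89 RPKM, and *Id2*, an inhibitor of helix-loop-helix factors, had 28.27 and 76.31. *Spic*, an ETS factor of red pulp macrophages, was below the limit in PBS, at 0.16 RPKM, and had 1.28 with exosomes. Progenitor factors were mostly low, and 5 of 12 passed with 0 higher and 0 lower (median -0.31). Of the 8 genes known to be repressed by GFI1, 3 were higher (*Nab2*, *Id2* and *Csf1r*) and 1 was lower (*Csf1*), with a median of 0.38. After centring, 0 of the 8 were higher and 1 was lower, with a median of -0.15. *Egr1*, *Egr2*, *Id2* and *Irf8* also stand in the list of monocyte, macrophage and dendritic cell factors, so the equal medians of these lists are not independent. Progenitor factors had 0 higher and 2 lower after centring, beside 16.8% and 13.2% of all genes.

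Known target genes of the members were set beside their regulators, without any measure of binding. Of 6 granule genes that depend on C/EBPε, 4 were at least 2-fold lower and 1 was higher (median log2 ratio -2.66). *Ltf*, the lactoferrin gene, had 143.98 RPKM in PBS and 15.09 with exosomes, a difference far larger than that of *Cebpe*. *Camp*, for cathelicidin, had 381.38 and 33.92 RPKM, *Ngp* had 862.34 and 85.01, and *Mmp8*, for neutrophil collagenase, had 832.76 and 199.67. *Mmp8* is also among the 7 neutrophil markers, which were all lower (median log2 ratio -1.64), so the counts of these lists are not independent. The gene higher was *Lcn2*, which is also an inflammatory target of C/EBPβ and C/EBPδ, at 1625.81 and 4080.94 RPKM. With the overall median removed, *Lcn2* was no longer called and 5 of the 6 were lower, against 13.2% of all genes.

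Of 10 inflammatory targets of C/EBPβ and C/EBPδ, 7 passed the limit, and 5 were at least 2-fold higher and 0 lower (median log2 ratio 1.33). *Saa3*, an acute phase gene, had 16.16 RPKM in PBS and 308.34 with exosomes, and *Csf3*, the gene of G-CSF, had 4.07 and 18.07. *Cd14*, the endotoxin coreceptor, had 117.77 and 208.76 RPKM. *Ptgs2* was on the other side, at 73.72 and 47.47 RPKM. With the overall median removed, 3 of these 7 were at least 2-fold higher and 1 was lower, against 16.8% and 13.2% of all genes.

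Of 11 PU.1 targets that passed, 2 were higher and 2 lower, with a median log2 ratio of -0.10. Centring on all genes gave 1 higher and 4 lower, against 16.8% and 13.2% of all genes, and a median of -0.63. *Cybb*, for the catalytic subunit of the phagocyte oxidase, had 69.67 RPKM in PBS and 295.08 with exosomes, and *Csf1r*, the receptor of macrophages for M-CSF, had 58.10 and 152.64. *Csf3r*, the G-CSF receptor of neutrophils and also one of the neutrophil markers, was among the genes lower, at 1548.56 and 715.09 RPKM. *Itgam*, for CD11b, had 312.74 and 393.40 RPKM. All 4 genes driven by KLF2 in other cells were at least 2-fold lower (median -1.16) although *Klf2* was not. Among them were *S1pr1*, for a receptor of sphingosine 1-phosphate, at 5.73 and 2.81 RPKM, *Thbd* at 9.37 and 3.83, and *Itgb7* at 1.29 and 0.63. After rescaling to TPM 2 of these 4 were past 2-fold. Of 4 RUNX1 targets that passed, *Spi1* itself among them, 1 was higher (*Csf1r*, which also stands in the PU.1 and GFI1 lists) and 0 were lower (median 0.47), whereas 0 were called in either direction after centring (median -0.05).

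**Figure D4:**
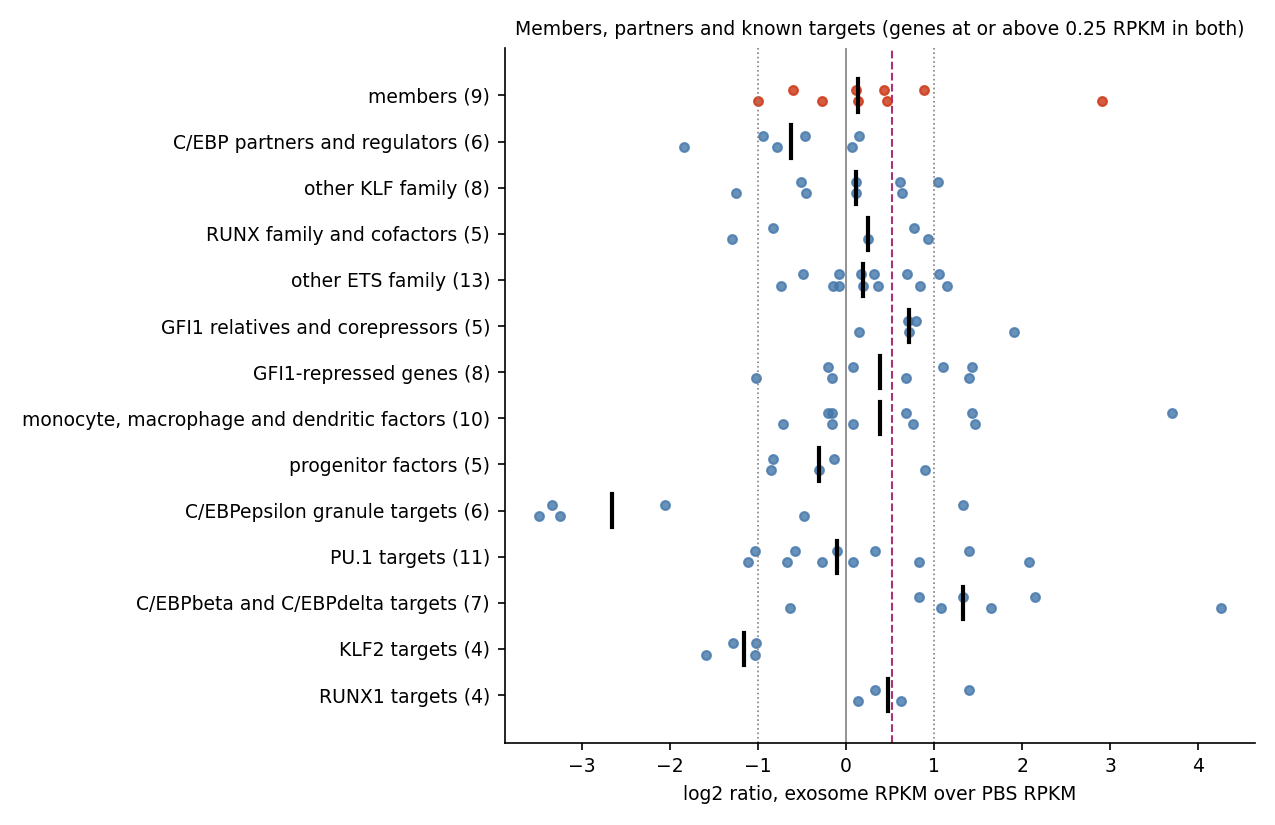
Log2 ratio of exosome RPKM over PBS RPKM for each gene that passed 0.25 RPKM in both libraries, by list (number of genes in brackets), with the list median (black bar), the median of all genes (dashed line, 0.53) and 2-fold (dotted lines). C/EBPε granule genes lie lowest (median -2.66), targets of C/EBPβ and C/EBPδ highest (median 1.33), and the members between (median 0.14).

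Because RNA came from whole cultures, a smaller number of cells of one type and less RNA per cell cannot be told apart, and marker genes of other cells moved with these values. Of 10 monocyte and macrophage markers, 5 passed the limit and 3 were at least 2-fold higher with exosomes, in the same direction as *Klf4*. Of all genes, 31.5% were higher. After centring on all genes, 2 of the 5 were higher, against 16.8% of all genes, and *Csf1r* was no longer called. None of the 10 was at 0 in either library. The single markers ranged from 0.04 to 83.91 RPKM in PBS and from 0.48 to 152.64 with exosomes. *Adgre1*, for F4/80, had 20.91 and 151.51 RPKM and *Ms4a7* had 1.02 and 16.79, whereas *Ccr2* had 0.50 and 0.88. Their part in the ratio of *Klf4* was not tested. B cell markers, 6 of 6 above the limit, summed to 109.96 RPKM in PBS and 67.95 with exosomes, and the share of B cells in the level of *Klf2*, which they also transcribe, was not tested. Markers of granulocyte progenitors, in which *Gfi1* and *Cebpe* are also transcribed, summed to 10.73 and 17.62 RPKM, a ratio of 1.64 beside the 1.44 of the median gene, and their part in the values of these genes was not tested. The dendritic cell markers summed to 21.96 and 15.42 RPKM, of which *H2-Ab1*, a class II gene that B cells also express, held 20.59 and 14.83, and the other 5 were at 0.64 RPKM or less. The T and NK cell markers summed to 57.93 and 7.32 RPKM, nearly all from *Cd3d* at 56.44 and 7.02, while *Cd3e* had 0.06 and 0.04 and *Cd3g* 1.19 and 0.11. The summed level of eosinophil markers was 10.64 and 5.29 RPKM, of basophil and mast cell markers 2.07 and 1.86, of erythroid markers 2.06 and 0.375, and of epithelial markers of carcinoma cells 0.59 and 0.205.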

How the data were processed

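RNA of 1 PBS-treated and 1 exosome-treated culture of sorted mouse bone marrow neutrophils was sequenced from TruSeq mRNA libraries on a HiSeq 2500. The authors used CLC Genomics Workbench to trim reads below a Phred score of 20 and to compute RPKM, of which 1 value per feature and library was deposited. The submitters' processing notes name mm10. The annotation, strand and multi-mapping settings are not given in the sources used here.

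Features kept had at least 0.25 RPKM in both libraries, and calls were set at a ratio of 2 or 0.5, the study's rule. With 1 library per group no test was made. Depth was estimated from values below 0.01 RPKM that stand for 1 read, using GENCODE M21 transcript lengths: 192 of 918 such values gave 1 total in PBS and 236 of 1064 with exosomes, within 0.3%. Exact Clopper-Pearson intervals (95%) of the estimated reads used the shortest full-length coding transcript, which need not be the authors' model. PCR duplicates are not removed, so intervals cover counting error only. The members, gene lists and cell type marker lists were chosen with earlier results of these data known. Named were all members, 10 set partner and target genes, listed genes past 4-fold, the 2 nearest listed genes of each member called, and members of small counts. Other genes were named where they qualify a sum, a count or an overlap of lists. Scripts (Python 3.11.15, scipy 1.17.1) were tested on simulated data. Protein sequences were not analysed here, and some listed genes are not reported here by name. Alternatives were median centring, centring within level bins, a trimmed mean of log ratios (30% and 5% trimmed), TPM, removal of S100a8 and S100a9, pseudocounts, other RPKM limits and other ratios.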

Additional observations from a re-analysis of the deposited data

How the results depend on the processing

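No paired analysis was possible because each treatment has 1 library, and for the same reason no replicate could be left out. *Klf4* remained at least 2-fold higher in all 8 settings of scaling, centring, pseudocount or filter that kept it, with a log2 ratio from 1.76 to 2.96. Requiring 1 RPKM in both libraries removed it and left 0 members higher, against 25.6% of the genes kept. The number of members at least 2-fold lower was 0 as reported, 2 (*Cebpe* and *Gfi1*) under median centring, centring within level bins and the trimmed mean, and 1 (*Cebpe*) when S100a8 and S100a9 were left out of the sum. Of all genes, 13.2% were at least 2-fold lower under median centring, 13.4% within level bins and 13.6% with the trimmed mean. The share was 7.43% without S100a8 and S100a9. At a ratio of 1.5, 2 members were higher and 2 lower, against 47.3% and 11.3% of all genes. The median log2 ratio of the members, 0.14, turned to -0.39 under median centring, -0.20 within level bins, -0.41 with the trimmed mean and -0.037 without S100a8 and S100a9. It was 0.18 in TPM. The settings chosen after seeing the data gave 0.27 without *Spi1* and 0.13 without *Klf4*. Median centring, the trimmed mean, TPM and the removal of S100a8 and S100a9 each subtract 1 constant from every log2 ratio and leave the ratios between members within a library as they are. Over all genes, median centring left 1634 higher and 1282 lower, against 3056 and 545.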
